A study of Arabidopsis thaliana with 16 samples.

Results

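Transcripts whose change across dawn differs between lhy-21; cca1-11 double-mutant seedlings and wild-type seedlings of the Wassilewskija (WS) accession were sought at 60 min after dawn. The quantity is a difference of differences: the log2 signal at 60 min minus that at 15 min before dawn in lhy-21; cca1-11, minus the same change in WS. Positive values mean a larger rise, or a smaller fall, in the double mutant. This comparison used 8 of the 16 samples in the series, with 2 samples in each of 4 groups. The groups were lhy-21; cca1-11 at 60 min, lhy-21; cca1-11 before dawn, WS at 60 min and WS before dawn. The samples at 15 and 30 min served as data outside the comparison. Whole seedlings, 9 days old, had been grown on agar with 3% sucrose at 22 °C after 4 days in the cold and dark at 4 °C. Their days had 18 h of light at 60 to 65 µE and 6 h of dark. The mutant is a T-DNA knock-out line in the WS background. No group stayed in the dark past dawn, so the effects of light and of the passing of time cannot be told apart.

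LHY and CCA1 are related MYB-type transcription factors of the plant circadian clock. Both accumulate around dawn and repress genes that peak later in the day, among them the evening genes GI and TOC1, and TOC1 feeds back on them. The series title concerns Y, which mathematical models of the clock posit as a gene switched on by light and held down by LHY and CCA1. Total RNA was labelled with biotin and hybridised to Affymetrix ATH1 arrays, 1 array per sample, and each probe set has a signal on a linear scale.

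After removal of control probe sets 22746 remained, and 14878 of them were tested because they lay above their array's 40th percentile (19.1 to 22.0 signal units) on at least 2 arrays. Replicates correlated at 0.961 to 0.975 across probe sets in the 4 groups. The labels number the replicates without stating separate cultures or plates, and the p-values therefore reflect a spread that may be technical. LHY and CCA1 have no named probe set on the annotation used, so the genotype labels were not checked by the targeted genes. The root-hair expansin EXPA18 lay above the percentile on all 16 arrays, at 23.3 to 68.9 signal units. EXPA7, another root-hair expansin, did so on 2, and no shoot marker of the lists used was named. The signal of a 25S ribosomal RNA control varied between arrays. Its log2 values were 7.22 and 8.01 in lhy-21; cca1-11 at 60 min, against 5.98 and 9.07 before dawn, and 6.88 and 7.35 in WS at 60 min, against 5.85 and 7.15 before dawn. In lhy-21; cca1-11 the 25S signal was higher on the second array at every time. Its log2 mean over the 4 times was 8.74 on those arrays, against 6.79 on the first ones and 6.57 over the 8 WS arrays. Settings that leave those second arrays out are given further below. With this control as a covariate, the 3 probe sets that lead the results still passed, among 7.

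The dawn change differed between the genotypes past the threshold, a Benjamini-Hochberg adjusted p under 0.05 in limma's test, for 3 probe sets, which is 0.0202% of those tested. All 3 differed more before dawn than at 60 min, and none has a gene listed on the annotation. One lost a rise that WS showed, one had a smaller rise in the double mutant, and one turned, rising in lhy-21; cca1-11 and falling in WS. At an unadjusted p under 0.05 there were 1021 probe sets (6.86%), and with no true difference a share of about 0.05 would pass. The median standard error of the difference was 0.282 log2, and the smallest difference past the threshold was 1.34 log2.

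In the double mutant, 250665_at stayed high through dawn. Its signals in lhy-21; cca1-11 were 422 and 382 before dawn, 353 and 399 at 15 min, 392 and 488 at 30 min, then 420.0 and 543 at 60 min. In WS they were 97.6 and 116 before dawn, 204 and 186 at 15 min, 297 and 325 at 30 min, then 635 and 569 at 60 min. The WS arrays climbed at each time, and the genotypes did not overlap before dawn, when both mutant arrays were over 3 times as bright as either WS array. At 60 min both WS arrays were above both mutant ones. The dawn change was 0.25 ± 0.155 log2 in lhy-21; cca1-11 (adjusted p = 0.406) and 2.50 ± 0.155 log2 in WS (adjusted p = 1.99e-08). The difference of -2.25 ± 0.220 log2 had an adjusted p of 0.000224, and it stayed past the threshold in all 18 alternative settings.

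The second probe set, 256266_at, rose in both genotypes, by less in the double mutant. Its signals in lhy-21; cca1-11 were 174 and 179 before dawn, 276 and 299.9 at 15 min, 317 and 402 at 30 min, then 344 and 384 at 60 min. In WS they were 78.8 and 93.6 before dawn, 157 and 187 at 15 min, 366 and 401 at 30 min, then 430.2 and 467 at 60 min. Both mutant arrays lay above both WS arrays before dawn and below them at 60 min. The rise was 1.04 ± 0.148 log2 in lhy-21; cca1-11 (adjusted p = 0.000141) and 2.38 ± 0.148 log2 in WS (adjusted p = 1.99e-08). The difference was -1.34 ± 0.209 log2 (adjusted p = 0.0371), and it missed the threshold without any one of the 4 mutant arrays, without the first WS array before dawn and without the second WS array at 60 min.

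The third, 253971_at, moved in opposite directions. Its signals in lhy-21; cca1-11 were 112 and 99.0 before dawn, 132 and 96.6 at 15 min, 122 and 109 at 30 min, then 160.1 and 176 at 60 min. In WS they were 319 and 349.6 before dawn, 239 and 317 at 15 min, 251 and 265 at 30 min, then 133 and 170.1 at 60 min. Every WS array was brighter than every mutant array before dawn and at 15 and 30 min, and at 60 min the genotypes overlapped. The change was 0.67 ± 0.179 log2 in lhy-21; cca1-11 (adjusted p = 0.0236) and -1.15 ± 0.179 log2 in WS (adjusted p = 0.000383). The difference was 1.82 ± 0.253 log2 (adjusted p = 0.0133). It missed the threshold without the second WS array before dawn or without the second mutant array at either time, and the mutant's own rise did so without any one of the 4 mutant arrays.

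**Figure D1:**
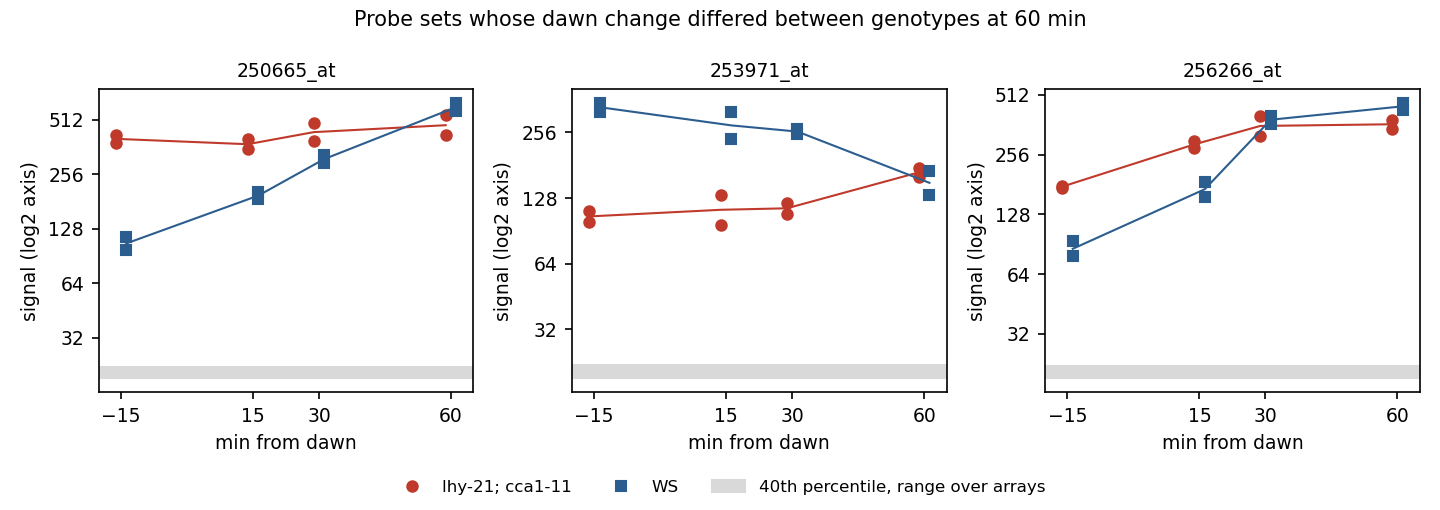
Signal (log2 axis) against minutes from dawn for the 3 probe sets whose dawn change differed between genotypes at 60 min, with points for single arrays (2 per genotype and time), lines through their geometric means and a grey band for the range of the arrays' 40th percentiles. Each pair of lines is far apart before dawn and crosses by 60 min.

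The arrays at 15 and 30 min entered the choice of these 3 probe sets only through the estimate of spread. At 15 min the genotype difference passed the threshold for all 3, against 1.73% of tested probe sets. Expressed as lhy-21; cca1-11 minus WS, it was 0.94 log2 for 250665_at (adjusted p = 0.00513), 0.75 for 256266_at (adjusted p = 0.0165) and -1.28 for 253971_at (adjusted p = 0.00142). At 30 min only 253971_at passed, at -1.17 log2 (adjusted p = 0.00348), against 1.07% of tested probe sets. The change between 15 and 30 min, again mutant minus WS, had the sign of the 60-min difference in all 3, at -0.45, -0.85 and 0.12 log2 in the same order, and passed the threshold in none.

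Each genotype's own dawn change was common. It passed the threshold for 1415 probe sets in lhy-21; cca1-11 (9.51%), with 642 rises (4.32%) and 773 falls (5.2%), and for 1327 in WS (8.92%), with 526 rises (3.54%) and 801 falls (5.38%). A change passed in the double mutant alone for 624 probe sets, here called gained, and in WS alone for 536, here called lost. Passing in 1 genotype alone is no evidence of a difference: the difference itself passed for 0 of the 624 and for 1 of the 536. The gained probe sets had the same sign in WS in 556 of 624, with a median absolute change of 0.77 log2 in lhy-21; cca1-11 and 0.35 log2 in WS. The lost ones had the same sign in the double mutant in 476 of 536, with medians of 0.34 log2 in lhy-21; cca1-11 and 0.77 log2 in WS. Over all tested probe sets the signs were the same in 9991 of 14878. Both classes need 1 genotype to pass and the other not, which favours such gaps between the medians. The gaps are therefore no result about the members. Both genotypes passed with a larger change in the double mutant for 429 probe sets and with a smaller one for 360, and 2 turned.

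**Figure D2:**
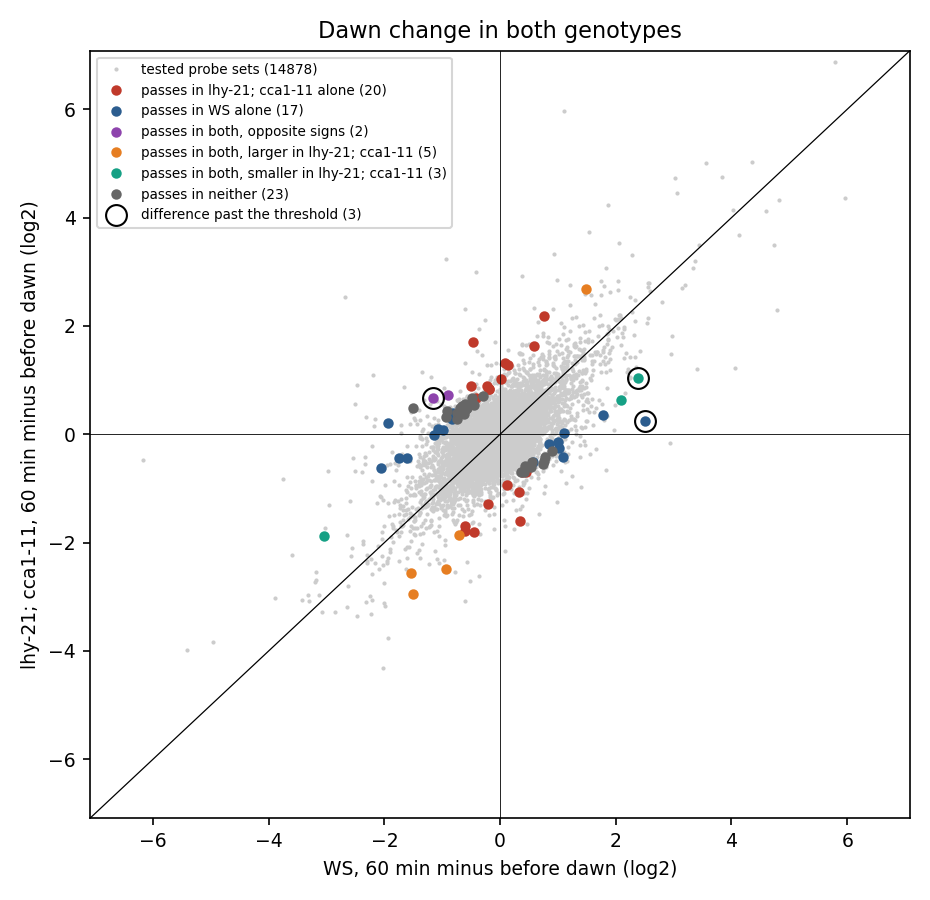
Dawn change at 60 min (log2) in lhy-21; cca1-11 (y axis) against WS (x axis) for 14878 probe sets, with the diagonal marking equal change. Large points are the 70 probe sets described in the text, by class, and open circles are the 3 past the threshold, which lie below the diagonal for 250665_at and 256266_at and above it for 253971_at.

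To show named genes near the threshold, a wider set was taken after the values were seen. It holds probe sets with an unadjusted p under 0.01 and a difference of at least 2-fold, above the percentile on all 8 arrays. There were 70 (0.47% of those tested), 38 positive and 32 negative, and 131 (0.88%) without the signal condition. Of the 70, 32 have 1 gene listed, 36 have none and 2 have several. For all but the 3 probe sets above the difference did not pass the threshold, so these are descriptions. With no true difference a share of about 0.01 of probe sets would have an unadjusted p under 0.01. Many of the 70 may therefore have arisen by chance. Just inside the threshold lay 256266_at (adjusted p = 0.0371), and just outside it lay COR15B (0.0615), 249798_at (0.0710) and AT3G25410 (0.0889). In the class of smaller changes, 249798_at had signals of 154 and 143 at 60 min in lhy-21; cca1-11, against 104 and 86.8 before dawn, and 318 and 244 at 60 min in WS, against 63.2 and 68.0 before dawn. Both mutant arrays were above the WS ones before dawn and below them at 60 min.

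Among the 7 named genes of the wider set with a gained change, COR15B, which encodes a cold-regulated protein that protects chloroplast membranes in freezing, had the largest difference. Its signals were 153 and 121 at 60 min in lhy-21; cca1-11, against 48.4 and 36.0 before dawn. In WS they were 41.1 and 36.1 at 60 min, against 70.9 and 39.96 before dawn. Both mutant arrays at 60 min stood above the other 6. It rose by 1.71 ± 0.256 log2 in the double mutant (adjusted p = 0.000256), the WS change was -0.47 ± 0.256 log2 (adjusted p = 0.311), and the difference was 2.18 ± 0.363 log2 (adjusted p = 0.0615). That difference passed in 6 of 18 alternative settings, with adjusted p between 0.0134 and 0.554. At 15 and 30 min the genotypes differed by 0.37 and 0.22 log2, neither past the threshold.

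AT1G13930 had a similar course, with signals of 1103 and 1167 at 60 min in lhy-21; cca1-11, against 511 and 427 before dawn, and 565 and 411 at 60 min in WS, against 400.2 and 477 before dawn. Only the mutant arrays at 60 min stood apart, and the gene rose by 1.28 ± 0.148 log2 in the double mutant (adjusted p = 1.83e-05). The difference was 1.14 ± 0.209 log2 (adjusted p = 0.105).

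The other 5 named genes of the wider set with a gained change fell in the double mutant. AT5G22390 had signals of 53.3 and 63.7 at 60 min in lhy-21; cca1-11, against 176 and 179 before dawn, and 59.6 and 110.0 at 60 min in WS, against 74.3 and 54.8 before dawn. Here the mutant arrays before dawn were the bright ones, and the mutant arrays at 60 min lay within or just below the WS range. The fall was -1.61 ± 0.270 log2 (adjusted p = 0.000746) and the difference -1.95 ± 0.381 log2 (adjusted p = 0.131). AT4G19530, which encodes a TIR-NBS-LRR protein of the disease-resistance type, fell in the double mutant, at -1.80 ± 0.198 log2 (adjusted p = 1.08e-05), with signals of 30.9 and 35.5 at 60 min, against 111 and 120.2 before dawn. Its WS signals were 68.4 and 54.3 at 60 min, against 66.9 and 105 before dawn, so that the 2 mutant arrays at 60 min were the lowest. AT4G27450 had its highest signals in the mutant before dawn, at 285 and 341, and its genotypes overlapped at 60 min. At 60 min it had 92.6 and 99.3 in lhy-21; cca1-11, and WS had 137 and 79.7 at 60 min, against 148 and 169 before dawn. The differences were -1.35 ± 0.280 log2 for AT4G19530 (adjusted p = 0.179) and -1.10 ± 0.299 log2 for AT4G27450 (adjusted p = 0.427). AT5G53340, for a galactosyltransferase-family protein, and AT1G76510, for an ARID-type DNA-binding protein, fell in the double mutant by 0.94 and 1.07 log2, with adjusted p of 0.0127 and 0.0477. Both of these falls missed the threshold in some alternative settings. Neither difference passed. That of AT5G53340 was -1.06 ± 0.319 log2 (adjusted p = 0.508), with a WS change of 0.13 log2, and that of AT1G76510 had an adjusted p of 0.559.

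Among genes with a lost change, AT4G28290 had a rise that passed the threshold in WS alone. Its signals were 119.7 and 88.7 at 60 min in lhy-21; cca1-11, against 93.5 and 68.9 before dawn, and 217 and 284 at 60 min in WS, against 63.8 and 82.7 before dawn. Both WS arrays at 60 min stood above the other 6, and before dawn the genotypes overlapped. The mutant change was 0.36 ± 0.216 log2 (adjusted p = 0.382), the WS rise 1.77 ± 0.216 log2 (adjusted p = 3.62e-05) and the difference -1.41 ± 0.305 log2 (adjusted p = 0.188). At 30 min, on arrays outside the comparison, lhy-21; cca1-11 minus WS was -0.93 log2 for AT4G28290 (adjusted p = 0.0487).

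CCL (CCR-like), whose short-lived mRNA is known to be under clock control, was high in the double mutant throughout and fell in WS. Its signals in lhy-21; cca1-11 were 735 and 909.5 before dawn, 756 and 816 at 15 min, 608 and 666 at 30 min, then 561 and 649 at 60 min. In WS they were 425 and 402 before dawn, 358 and 269 at 15 min, 215 and 187 at 30 min, then 149.9 and 123 at 60 min. The genotypes did not overlap at any of the 4 times, and the gap widened at each one. The mutant change was -0.44 ± 0.159 log2 (adjusted p = 0.105), the WS fall -1.61 ± 0.159 log2 (adjusted p = 4.69e-06) and the difference 1.17 ± 0.225 log2 (adjusted p = 0.119). On arrays outside the comparison, lhy-21; cca1-11 was higher by 1.34 log2 at 15 min (adjusted p = 0.000376) and by 1.67 log2 at 30 min (adjusted p = 2.71e-05).

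Other falls that passed in WS alone were smaller or less even. AT3G16530, for a legume-lectin-like protein, had signals of 95.2 and 100.1 at 60 min in lhy-21; cca1-11, against 152 and 114 before dawn, and 111 and 104 at 60 min in WS, against 509 and 259 before dawn. The 2 WS arrays before dawn were the highest and differed from each other by nearly a factor of 2, and the WS fall was -1.76 ± 0.243 log2 (adjusted p = 0.000127). AT3G61160, for a kinase of the shaggy-like family, had overlapping signals in lhy-21; cca1-11, of 58.7 and 74.4 at 60 min, against 72.7 and 52.3 before dawn. In WS it had 32.9 and 49.2 at 60 min, against 90.07 and 79.3 before dawn, and it fell there by 1.07 log2 (adjusted p = 0.00271). AT1G20910, for another ARID-type protein, AT3G62140 and AT3G63090 fell in WS by 1.14, 0.81 and 0.84 log2, with adjusted p of 0.00439, 0.0224 and 0.0219, and each missed the threshold in some alternative settings. The differences of these 5 genes lay between 1.12 and 1.32 log2, with adjusted p between 0.359 and 0.483.

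AT3G10810 and the plastid gene psbB, for a chlorophyll-binding core protein of photosystem II, had rises that passed the threshold in WS alone. AT3G10810 had a mutant change of -0.52 ± 0.161 log2 (adjusted p = 0.0549) and a WS rise of 0.57 ± 0.161 log2 (adjusted p = 0.0344), which missed the threshold without any one of the 4 WS arrays. The signals of psbB were 662 and 974 at 60 min in lhy-21; cca1-11, against 964 and 952 before dawn, and 888 and 1056 at 60 min in WS, against 356 and 648 before dawn. The 2 WS arrays before dawn were the lowest and far apart, and the WS rise of 1.01 ± 0.304 log2 (adjusted p = 0.0477) missed the threshold without 3 of the 4 WS arrays taken in turn. Over the 69 tested plastid genes the median difference was -0.0748 log2, against 0.0223 over all tested probe sets, and none passed. Of their own changes, 0 passed in lhy-21; cca1-11 and 2 rises passed in WS, where 3.54% of all tested probe sets rose. The 2 were psbE and psbB, and the rise of psbE too missed the threshold in some alternative settings.

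AT3G25410, for a protein of the bile acid:sodium symporter family, turned, as 253971_at did. Its signals were 80.2 and 95.9 at 60 min in lhy-21; cca1-11, against 50.1 and 56.4 before dawn, and 40.2 and 44.6 at 60 min in WS, against 87.3 and 72.4 before dawn. The genotypes changed places: both WS arrays were above the mutant ones before dawn, and both mutant arrays were above the WS ones at 60 min. It rose by 0.72 ± 0.206 log2 in the double mutant (adjusted p = 0.0348) and fell in WS, at -0.91 ± 0.206 log2 (adjusted p = 0.00910), and both calls were lost in some alternative settings. The difference was 1.63 ± 0.291 log2 (adjusted p = 0.0889).

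Deeper falls in the double mutant marked 3 named genes that fell in both genotypes. AT1G54740 had signals of 40.4 and 46.4 at 60 min in lhy-21; cca1-11, against 323 and 344 before dawn, and 51.5 and 50.5 at 60 min in WS, against 134 and 156 before dawn. The mutant arrays were above the WS ones before dawn and slightly below them at 60 min. The fall was -2.95 ± 0.244 log2 in lhy-21; cca1-11 (adjusted p = 7.65e-07) and -1.50 ± 0.244 log2 in WS (adjusted p = 0.000594), with a difference of -1.44 ± 0.345 log2 (adjusted p = 0.322). AT3G26510, for a protein with a PB1-type domain, had signals of 118 and 108 at 60 min in lhy-21; cca1-11, against 406 and 417 before dawn, and 224 and 157 at 60 min in WS, against 264 and 361 before dawn. AT3G23880, for an F-box protein, had 35.9 and 38.1 at 60 min in lhy-21; cca1-11, against 237 and 200.1 before dawn, and 67.3 and 47.2 at 60 min in WS, against 162 and 164 before dawn. In both genes the 2 mutant arrays at 60 min were the lowest of the 8. The WS fall of AT3G26510 was -0.72 ± 0.175 log2 (adjusted p = 0.0149), and it missed the threshold without the second WS array before dawn or at 60 min. Their differences were -1.15 ± 0.248 log2 (adjusted p = 0.188) and -1.03 ± 0.267 log2 (adjusted p = 0.399).

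In 12 named genes of the wider set neither genotype's own change passed. They include SWEET2, a sugar transporter of the vacuole membrane, with a difference of -1.06 ± 0.318 log2 (adjusted p = 0.508), and AGL16, a MADS-box factor that represses flowering, at 1.01 ± 0.335 log2 (adjusted p = 0.562).

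**Figure D3:**
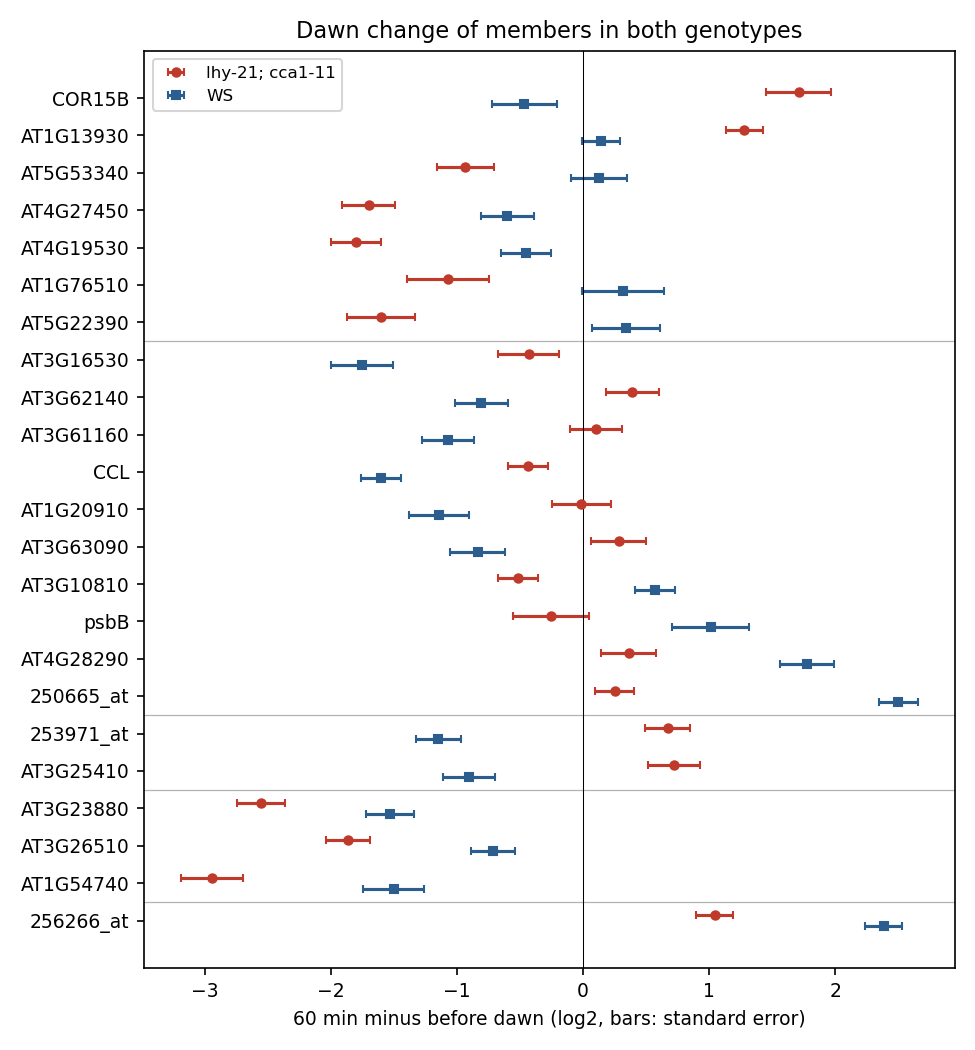
Dawn change at 60 min (log2) of the named genes of the wider set whose own change passed in at least 1 genotype, and of the 3 probe sets past the threshold, in lhy-21; cca1-11 (circles) and WS (squares), with standard errors. Lines separate the classes, from top to bottom gained, lost, turned, larger and smaller in the double mutant.

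**Figure D4:**
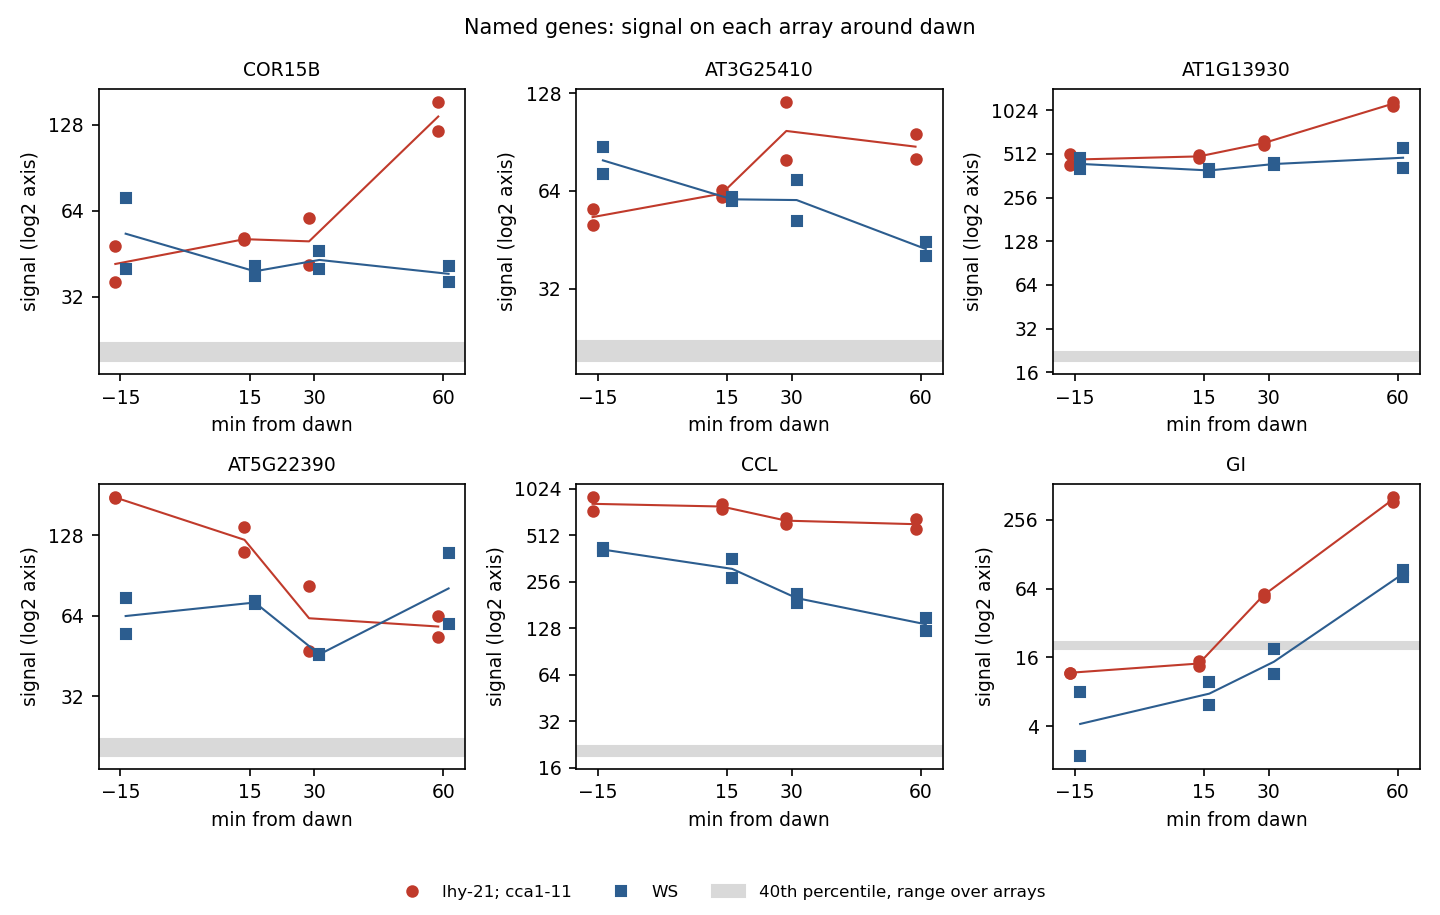
Signal (log2 axis) on each array against minutes from dawn for 6 named genes, with lines through the geometric means of 2 arrays and a grey band for the arrays' 40th percentiles. COR15B and AT1G13930 part at 60 min, AT5G22390 differs most before dawn, AT3G25410 crosses, the CCL lines move apart, and GI is low in both genotypes before dawn.

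The wider set differed in when the genotypes stood apart. The genotype difference was larger at 60 min than before dawn in 45 of the 70 and larger before dawn in 25, and it changed sign between these times in 55. Over all tested probe sets it was larger at 60 min in 7911 and before dawn in 6967, and it changed sign in 5541 of the 14878. The wider set was chosen by the gap between these same genotype differences, which favours a change of sign. The count of 55 is therefore no separate trait of the set. On arrays at the other times, the change between 15 and 30 min, mutant minus WS, had the sign of the 60-min difference in 49 of 70 (70%), against 51.8% of all tested probe sets. The genotype difference itself passed at 15 min in 6 of the 70, against 1.73% of all tested probe sets, and at 30 min in 5, against 1.07%. The named genes among these were CCL at both times and AT4G28290 at 30 min. The counts that passed include the 3 probe sets past the threshold, all 3 at 15 min and 1 at 30 min. The arrays at 15 and 30 min also entered the choice of the 70 through the estimate of spread. In bulk tissue, fewer cells of a type and less RNA per cell cannot be told apart.

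**Figure D5:**
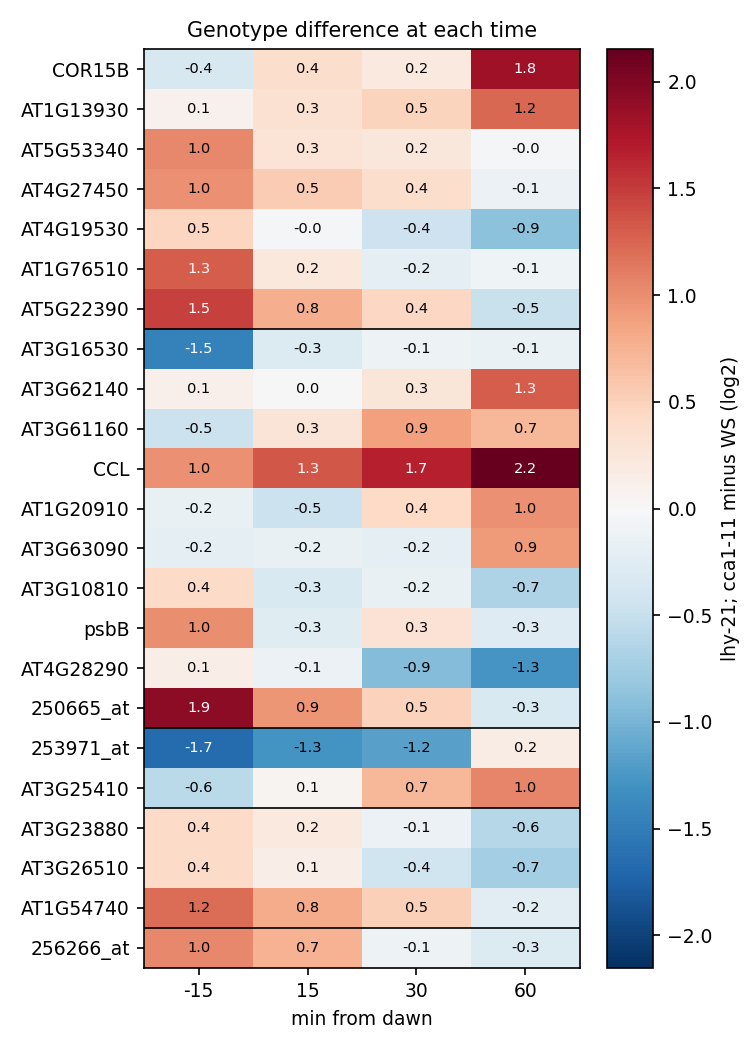
Genotype difference, lhy-21; cca1-11 minus WS (log2), at the 4 sampling times, for the same genes and probe sets, in the same class order. The value is printed in each cell; that of CCL grows at each time to 2.15 and that of 250665_at passes through 1.92, 0.94, 0.49 and -0.33.

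Of the clock genes in the lists used, few are named on the annotation. GI, for GIGANTEA of the evening clock, was the 1 tested gene of the evening list, and it rose steeply in both genotypes. Its signals were 361 and 405 at 60 min in lhy-21; cca1-11, against 11.8 and 11.8 before dawn, and 80.4 and 92.3 at 60 min in WS, against 2.21 and 7.98 before dawn. All 4 arrays before dawn were below the percentile, so the rise was at least 17.9-fold in lhy-21; cca1-11 and at least 4.23-fold in WS. Each bound is set by the percentile or the dim signal, whichever is higher, so the bounds do not compare the genotypes. Fitted on the dim signals as they are, the rises were 5.02 log2 in lhy-21; cca1-11 (adjusted p = 1.16e-06) and 4.36 log2 in WS (adjusted p = 4.80e-06). The fitted difference was 0.67 ± 0.612 log2 (adjusted p = 0.888), it passed at an adjusted p of 0.0230 with 16 added before log2, and without the second WS array before dawn it was -0.26 log2. Over the 8 group means of the series, the genes whose course was most like that of GI were AT5G64180, AT3G52870, AT5G40500 and AT5G50100, with Pearson correlations of 0.995, 0.988, 0.983 and 0.979. They are the highest of all named genes on few means, and a correlation ignores the size of a change. AT5G40500 and AT5G50100 rose past the threshold in both genotypes and AT5G64180 in lhy-21; cca1-11 alone. AT3G52870 passed in neither, with 0.38 log2 in lhy-21; cca1-11 and 0.37 log2 in WS. In the morning list the 1 tested gene was AT5G52660, a MYB-like relative of LHY and CCA1, which rose in both genotypes, with a difference of 0.19 log2 (adjusted p = 0.954).

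Cold and dehydration genes had 6 tested members, COR15B, COR15A, COR47, LTI30, STZ and LEA4-5. None of the differences passed, and their median was 0.58 log2, against 0.0223 over all tested probe sets. The members' own changes passed as a rise for 4 in lhy-21; cca1-11 (4.32% of all tested probe sets rose) and for 1 in WS (3.54%). COR15A, the close relative of COR15B, had signals of 84.1 and 95.6 at 60 min in lhy-21; cca1-11, against 9.77 and 16.0 before dawn, and 42.4 and 33.1 at 60 min in WS, against 17.5 and 20.7 before dawn. Both mutant arrays before dawn were below the percentile, and the mutant rise was at least 4.19-fold (adjusted p of the fitted change = 9.12e-05). The fitted difference was 1.86 ± 0.542 log2 (adjusted p = 0.481). Cross-hybridisation between the probe sets of these relatives was not tested. LTI30, a dehydrin, rose in the double mutant by 0.67 ± 0.200 log2 (adjusted p = 0.0432). Its WS change was 0.05 ± 0.200 log2 (adjusted p = 0.928) and the difference 0.63 ± 0.283 log2 (adjusted p = 0.693). LEA4-5, a late embryogenesis abundant protein, rose in both genotypes, by 1.43 ± 0.35 log2 in lhy-21; cca1-11 (adjusted p = 0.0143). In WS its rise was at least 4.32-fold (adjusted p of the fitted change = 0.000287), and both WS arrays before dawn were below the percentile. The fitted rise of LEA4-5 was larger in WS, at 2.33 ± 0.350 log2. Its fitted difference of -0.90 ± 0.495 log2 (adjusted p = 0.772) was the lowest of the 6 members. COR47, another dehydrin, had 0.47 log2 in lhy-21; cca1-11 and -0.06 log2 in WS, neither past the threshold. STZ, a zinc-finger factor of cold and salt responses, had a difference of -0.27 ± 0.710 log2.

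SMZ, an AP2-type repressor of flowering, rose in both genotypes, with signals of 56.9 and 37.1 at 60 min in lhy-21; cca1-11, against 16.7 and 22.8 before dawn, and 84.5 and 102 at 60 min in WS, against 15.6 and 20.99 before dawn. Of the arrays before dawn, 1 in each genotype lay below the percentile, and the mutant rise (adjusted p = 0.00902) missed the threshold without the first mutant array before dawn or at 60 min. Both WS arrays at 60 min were above both mutant ones, and the difference was -1.12 ± 0.401 log2 (adjusted p = 0.614). AT1G26790, the other tested gene of the day-length list and a DOF-type transcription factor, was below the percentile on all arrays of lhy-21; cca1-11 and in WS before dawn. In WS it lay above it at 24.8 and 29.2 signal units at 15 min, 46.9 and 50.8 at 30 min, then 42.8 and 33.9 at 60 min, and neither genotype's change at 60 min passed. Among phenylpropanoid and flavonoid genes 7 were tested, and 5 rose in each genotype, where 4.32% of all tested probe sets rose in lhy-21; cca1-11 and 3.54% in WS. No difference passed, and the median was 0.0693 log2. UGT84A1, 1 of the 5 in both genotypes, lay above the percentile on only 3 of the 16 arrays and on none before dawn. Its fitted rises therefore start from dim signals. UGT78D1, a flavonol rhamnosyltransferase, had 0.60 ± 0.312 log2 (adjusted p = 0.753) and DFR, of the anthocyanin branch, -0.45 ± 0.357 log2 (adjusted p = 0.857). PUB19, a U-box ubiquitin ligase of the drought response, rose in both genotypes, with signals of 252 and 343 at 60 min in lhy-21; cca1-11, against 26.3 and 6.91 before dawn, and 332 and 432 at 60 min in WS, against 46.5 and 44.1 before dawn. The mutant arrays before dawn differed widely, 1 of them lying below the percentile, and the difference was 1.38 ± 0.533 log2 (adjusted p = 0.672). PUB22, its relative, was -0.07 ± 0.642 log2 (adjusted p = 0.990), a value whose sign turned in some alternative settings.

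In the remaining lists no difference passed. The light-signalling factor HYH had -0.11 log2, the shade-response gene HAT2 0.07 log2, and 15 wall-loosening genes a median of -0.0349 log2. Medians were -0.13 log2 over 4 genes of sugar starvation, -0.16 log2 over 3 antenna genes of photosystem II, 0.07 log2 over 2 genes of chlorophyll synthesis and -0.0061 log2 over 2 of starch metabolism. No heat-shock or mitochondrial gene of the lists was tested.

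At earlier times the difference of dawn changes passed for 0 probe sets at 30 min in limma's test (695, or 4.67%, at an unadjusted p under 0.05) and for 0 at 15 min (634, or 4.26%). These comparisons share the arrays before dawn with the one at 60 min. In mutant-minus-WS dawn changes at 15, 30 and 60 min, 250665_at had -0.98, -1.43 and -2.25 log2, 256266_at had -0.29, -1.14 and -1.34 log2, and 253971_at had 0.38, 0.50 and 1.82 log2. COR15B had 0.72, 0.57 and 2.18 log2. The change between 15 and 30 min, which uses none of the arrays of the 60-min comparison, differed past the threshold for 1 probe set (0.00672%), that of AT4G33380.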

How the data were processed

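Signals are intensity on a linear scale, computed with MAS5 and GCOS per the submitters' processing notes (no version is given there). Each array's deposited values share a trimmed mean of 100.01 (2% trimmed at each end), read from the files. RNA labelling used one-cycle target preparation, per the labels' protocols. The number of arrays limits the precision, and the median standard error was 0.282 log2 for the difference and 0.199 log2 for 1 genotype's change.

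Of 22810 probe sets, 64 controls (0.281%) were left out. Genes came from the platform annotation: 13513 probe sets had 1 gene, 503 several and 8730 none; 13436 matched the TAIR10.1 reference. Signals were converted to log2 without an offset. limma 3.58.1 in R 4.3.3 (lmFit, then eBayes with an intensity trend) fitted 8 group means over all 16 arrays, which left 8 residual degrees of freedom. Tests were 2-sided, p-values were adjusted over all 14878 tested probe sets, and ± is a standard error with 2 arrays per group. Dim signals give lower bounds, with the higher of the percentile and the signal in their place.

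Named genes are those past the threshold by class, list members past it, GI, up to 2 members of smallest p per described list, and the 4 genes most like GI; those of the wider set of 70 probe sets were added after their values were seen. The comparison, its members and the lists were chosen with earlier results of these data known. The fit was tested on simulated data. Alternatives changed the scaling, filter, offset, trend, arrays or covariates. The replicate numbers did not pair the samples. Genome sequence was not used here.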

Additional observations from a re-analysis of the deposited data

Results flagged for a closer look

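The dawn change at 60 min differed between the genotypes by a test of the difference itself for 3 probe sets, all without a listed gene. As lhy-21; cca1-11 minus WS it was -2.25 log2 for 250665_at, -1.34 log2 for 256266_at and 1.82 log2 for 253971_at.

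The change between 15 and 30 min differed between the genotypes, by the same kind of test on other arrays, for AT4G33380, at -2.03 ± 0.240 log2 (limma, adjusted p = 0.00314). Its mean signals in lhy-21; cca1-11 were 288 before dawn, 316 at 15 min, 143 at 30 min and 259 at 60 min. In WS they were 271 before dawn, 135 at 15 min, 250.3 at 30 min and 140.4 at 60 min. The genotypes overlapped before dawn and at no later time, and WS was low at 15 and 60 min where the double mutant was low at 30 min. Its dawn change difference at 60 min was 0.79 log2 (adjusted p = 0.508).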

How the results depend on the processing

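Quantile normalization, median centring, no filter on dim probe sets and a filter at the 60th percentile each gave 3 differences at 60 min, in the same 3 probe sets. The count was 8 with 16 added before log2, 7 with the 25S control as a covariate, and 1 with only the 8 arrays of the comparison, without the intensity trend or with the second lhy-21; cca1-11 array of every time left out. Leaving out 1 array at a time gave 1 to 12, the highest without the first WS array at 60 min and the lowest without the second lhy-21; cca1-11 array before dawn or at 60 min.

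The fit with the replicate number as a block gave 6 differences at 60 min and 2 at 30 min. Differences between replicates correlated at 0.0584 to 0.137 over 6 pairs of the 4 groups, and the numbers were not taken as pairs.

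With only 8 arrays, own changes numbered 895 in lhy-21; cca1-11 and 846 in WS, where fewer residual degrees of freedom remain. Leaving out 1 array gave 797 to 1045 in lhy-21; cca1-11 and 822 to 1253 in WS, and the double mutant had 505 with its second arrays left out. At 30 min the count was 1 with those arrays left out and 0 to 3 without 1 array. Between 15 and 30 min it was 0 without the trend, 3 with the second lhy-21; cca1-11 arrays left out and 1 to 2 without 1 array. The wider set held 29 probe sets with 16 added, and 56 to 133 without 1 array, the lowest without the first WS array before dawn and the highest without the second WS array at 60 min.

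Signs turned for PUB22, at 0.0035 log2 with the 25S covariate, 0.19 log2 with the second lhy-21; cca1-11 arrays left out and -0.82 to 0.68 log2 without 1 array, and for GI, at -0.26 to 1.59 log2 without 1 array. Their causes were not tested. Over 71 results for single genes there were 1011 values on the same side of the threshold, 81 that lost it, 16 that gained it and 7 of turned sign.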
